A study of Mus musculus with 12 samples.

Results

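Gasdermins are a family of proteins that open pores in cell membranes, and their transcripts were followed here in the mouse ear by every probe annotated to a member of the family. The member names were Gsdma, Gsdma2, Gsdma3, Gsdmc, Gsdmc2, Gsdmc3, Gsdmc4, Gsdmd and Gsdme with its older name Dfna5. Of these 9 genes, 8 had a probe, out of 14277 genes with a probe of 1 gene name, and together they had 13 probes. No probe carried the names Gsdmc4 or Dfna5, and those names have no value here. The family was chosen by a measured value from these same arrays, namely that Gsdmc2 was higher after injury mainly in the SM/J strain. For that reason the 6 probes of Gsdmc, Gsdmc2 and Gsdmc3, neighbouring genes with closely related sequences, are described without a test. The 7 probes of Gsdma, Gsdma2, Gsdma3, Gsdmd and Gsdme were tested.

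The tissue was ear of 2 inbred mouse strains, LG/J, which closes ear punch holes well, and SM/J, which closes them poorly. In each strain 3 Illumina bead arrays measured uninjured ear and 3 measured tissue around an ear punch made 7 days earlier, which makes 12 arrays in 4 groups. The labels name no other treatment or allele and no age, and they do not say that arrays of a group came from separate animals, so p-values measure the spread between these samples, which may be technical.

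A gasdermin is made as an inactive protein with a pore-forming N-terminal part held back by its C-terminal part. When a protease cuts the linker between them, the N-terminal parts assemble into a pore in the cell membrane, through which interleukin 1 beta leaves and by which the cell can swell and burst, a death called pyroptosis. Gsdmd, the best-studied member, is cut by the inflammatory caspases 1 and 11 (the latter encoded by Casp4 in mice), and Gsdme is cut by caspase 3. The mouse Gsdma genes are best known from skin, where mutations in Gsdma3 cause hair loss, and the Gsdmc genes are known from mouse intestinal epithelium, where interleukins 4 and 13 induce them.

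The genes lie in 4 places in the mouse genome (RefSeq, GRCm38.p6; the build behind the array files is not given in the sources used here). Gsdma3, Gsdma2 and Gsdma lie side by side on chromosome 11, from 98626349 to 98677708. Gsdmc (63775971 to 63808739), Gsdmc2 (63824328 to 63845193) and Gsdmc3 (63857605 to 63878579) form a cluster on chromosome 15. Gsdmd lies on the same chromosome at 75862144 to 75867408, and Gsdme on chromosome 6 at 50207401 to 50263857. RefSeq promoter sequences were at hand for 3 of the 9 member genes. They are printed because these genes had 3 different patterns: Gsdmc3 was higher after injury in both strains, Gsdma3 differed between the strains, and Gsdme did not pass the test in any comparison. Each window has 300 bases, from 250 before to 50 after the annotated start, written 5′ to 3′ on the strand of the gene, with motif matches in capitals. The Gsdme window lies inside the gene span given above, so its annotated start is not the outer end of that span.
Gsdmc3 promoter, chr15:63878509-63878808, minus strand: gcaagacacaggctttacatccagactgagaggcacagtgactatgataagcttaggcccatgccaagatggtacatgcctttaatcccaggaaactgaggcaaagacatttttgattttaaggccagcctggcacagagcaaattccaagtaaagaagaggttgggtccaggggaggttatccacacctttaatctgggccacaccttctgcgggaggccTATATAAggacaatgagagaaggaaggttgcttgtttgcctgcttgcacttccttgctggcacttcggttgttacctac
Gsdma3 promoter, chr11:98626099-98626398, plus strand: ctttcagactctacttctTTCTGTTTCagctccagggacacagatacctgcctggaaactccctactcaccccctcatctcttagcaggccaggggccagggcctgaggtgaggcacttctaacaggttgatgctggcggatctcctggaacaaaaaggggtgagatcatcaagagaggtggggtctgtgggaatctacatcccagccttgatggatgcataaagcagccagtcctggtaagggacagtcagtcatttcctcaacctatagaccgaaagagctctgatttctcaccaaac
Gsdme promoter, chr6:50261720-50262019, minus strand: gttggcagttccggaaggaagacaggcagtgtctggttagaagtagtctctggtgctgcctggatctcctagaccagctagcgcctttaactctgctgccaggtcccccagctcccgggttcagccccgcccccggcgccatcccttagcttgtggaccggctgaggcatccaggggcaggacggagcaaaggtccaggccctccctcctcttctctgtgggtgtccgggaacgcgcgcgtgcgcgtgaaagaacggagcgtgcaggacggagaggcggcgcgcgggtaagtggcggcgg

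The windows differ in base composition. That of Gsdme holds 65.7% G and C with 24 CpG pairs, that of Gsdma3 51.7% with 2 pairs and that of Gsdmc3 48.3% with 2 pairs, where the median over all 32851 promoters of the table is 7 pairs. The capitals in the Gsdmc3 window are a match to the TATA box motif (TATANAA), 29 bases before the start. This motif was searched after the sequences were seen, and 11.3% of all promoters hold it on either strand. The capitals in the Gsdma3 window are a match, on the opposite strand and 232 bases before the start, to the motif GAAANNGAA of interferon regulatory factors, which 8.56% of all promoters hold. The other motifs searched on both strands were TTCNNNGAA for STAT factors (8.3% of promoters), TTC, any 4 bases and GAA for STAT6 (6.95%), and TGANTCA for AP-1 (7.81%), and none of the 3 windows holds their letters.

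Levels are given as normalized log2 intensity, on which a difference of 1 is a doubling. No gene's level is compared with another gene's, and probes of 1 gene are ranked by brightness only to pick or name them. A probe counts as above background on an array when it lies over a limit set from the lower side of that array's own signals, which was 5.75 to 5.83 on this scale. Median raw intensity per array ran from 95.9 to 118 and 52.4% to 55.0% of probes lay above the limit. In a principal component analysis the first component (50.7% of the variance) parted the strains and the second (24.7%) parted day 7 from uninjured ear. LG/J uninjured replicate 4 stood apart, at 6.28 on the first component where the other LG/J uninjured arrays were at -66.0 and -61.9, and SM/J uninjured replicate 2 lay at 36.2 where its 2 partners were at 69.1 and 68.6. All markers of basal (5 of 5 measured) and suprabasal (5 of 7) keratinocytes were above background on every array.

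By probe ILMN_3115255, Gsdmc2 was near background in LG/J ear and bright in injured SM/J ear. Probe ILMN_3115255 read 5.47, 4.95 and 5.54 in uninjured LG/J ear, 5.73, 5.37 and 5.97 in injured LG/J ear, 6.16, 6.41 and 7.16 in uninjured SM/J ear, and 9.68, 10.97 and 10.64 in injured SM/J ear. Of the 6 LG/J arrays 1, at day 7, lay above the background limit, whereas all 6 SM/J arrays did, and the injured SM/J arrays lay above every other array. The change with injury was 0.37 ± 0.32 (SE, n = 3 arrays per group) in LG/J and 3.86 ± 0.32, or 14.5-fold, in SM/J. At day 7 the measured SM/J mean exceeded the LG/J mean, to which 1 of 3 arrays above background and 2 below it contributed, by 4.74 ± 0.32. In uninjured ear SM/J was at least 1.72-fold brighter than LG/J, a lower bound because no uninjured LG/J array reached the limit.

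The second Gsdmc2 probe, ILMN_3040543, moved in opposite directions in the strains. It read 6.0, 6.0 and 6.99 in uninjured and 5.50, 5.51 and 5.76 in injured LG/J ear. It read 6.76, 6.94 and 6.98 in uninjured and 8.07, 9.09 and 8.67 in injured SM/J ear. All 3 uninjured LG/J arrays were above background for this probe, and no injured LG/J array was. In uninjured ear the strains overlapped, with SM/J at 0.56 ± 0.27 relative to LG/J. Each strain's injured arrays did not overlap its uninjured ones, lower in LG/J and higher in SM/J. In LG/J the injured level was at least 1.43-fold lower, and in SM/J the change was 1.72 ± 0.27. The LG/J change of -0.74 ± 0.27 was -0.41 without LG/J uninjured replicate 4, the brightest uninjured LG/J array for this probe. At day 7 SM/J was at least 6.96-fold brighter than LG/J.

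Gsdmc was higher after injury in both strains, and more so in SM/J, by all 3 of its probes. The brightest of them, ILMN_1257797, read 6.13, 6.36 and 7.24 in uninjured and 8.54, 8.34 and 8.04 in injured LG/J ear, against 5.95, 6.39 and 6.76 in uninjured and 9.45, 10.09 and 9.19 in injured SM/J ear. Injured arrays lay above uninjured ones in each strain, and the injured SM/J arrays above the injured LG/J ones. The change was 1.73 ± 0.30 (3.31-fold) in LG/J and 3.21 ± 0.30 (9.23-fold) in SM/J, a difference of 1.48 ± 0.42.

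The other Gsdmc probes followed the same course. ILMN_1240230 read 6.04, 6.08 and 7.08, then 7.49, 7.34 and 7.17 in LG/J, and 5.76, 6.65 and 6.78, then 8.81, 9.43 and 8.87 in SM/J, with changes of 0.94 ± 0.30 and 2.64 ± 0.30. ILMN_2730216 read 5.80, 6.32 and 7.39, then 7.66, 7.78 and 7.51 in LG/J, and 5.90, 6.74 and 7.14, then 8.97, 9.88 and 8.99 in SM/J, with changes of 1.15 ± 0.38 and 2.69 ± 0.38. In all 3 probes the uninjured strains overlapped, and LG/J uninjured replicate 4 was the brightest uninjured LG/J array. Without that array the LG/J changes of the Gsdmc probes were 2.06, 1.28 and 1.60. Without both it and SM/J uninjured replicate 2, the SM/J change exceeded the LG/J change by 0.94, 1.04 and 0.74 in these probes, where it was 1.48, 1.70 and 1.53 with all arrays.

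Gsdmc3 had a different strain pattern from its neighbours. Its probe read 7.63, 8.27 and 7.48 in uninjured and 10.28, 10.25 and 9.96 in injured LG/J ear, and 6.07, 6.10 and 6.45 in uninjured and 9.76, 10.04 and 9.39 in injured SM/J ear. Uninjured SM/J arrays were lower than all uninjured LG/J arrays, by 1.59 ± 0.22 (3.0-fold), and after injury the strains overlapped, with SM/J at -0.44 ± 0.22 relative to LG/J. The change with injury was 2.37 ± 0.22 (5.17-fold) in LG/J and 3.52 ± 0.22 (11.5-fold) in SM/J. So Gsdmc2 probe ILMN_3115255 was higher in SM/J uninjured ear and Gsdmc3 was lower there. Over the 12 arrays Gsdmc3 had a Pearson correlation of 0.32 with that Gsdmc2 probe and of 0.67 to 0.83 with the Gsdmc probes, while the Gsdmc probes correlated at 0.96 to 0.99 with each other and the 2 Gsdmc2 probes at 0.93, a description in which the arrays share their groups. Probe sequences were not used here, and with such close relatives it is uncertain which gene each probe reports.

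**Figure D1:**
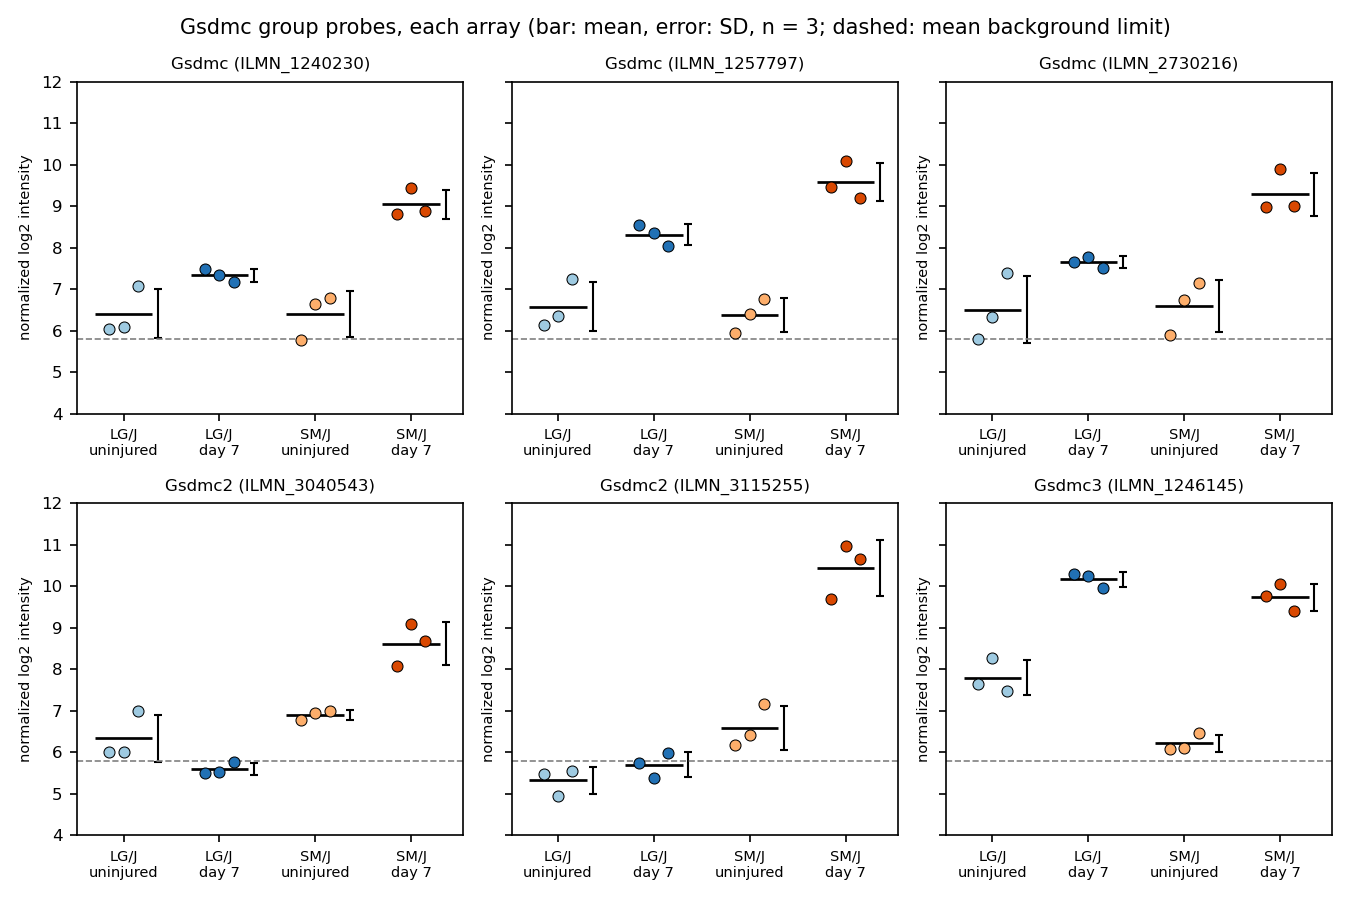
Normalized log2 intensity of the 6 probes of Gsdmc, Gsdmc2 and Gsdmc3 on each array, by strain and day, with the group mean (bar), its SD (n = 3) and the mean background limit (dashed). Gsdmc2 probe ILMN_3115255 sits between 4.95 and 5.97 on the LG/J arrays and between 9.68 and 10.97 on the injured SM/J arrays, whereas Gsdmc3 is at 9.39 or above in injured ear of both strains.

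Across the Gsdmc group, injured arrays did not overlap uninjured ones and were higher in 4 of 6 probes in LG/J, with 1 lower, against 13.2% of all 33960 probes tested that were higher in this way. In SM/J they were higher in 6 of 6, against 14.9% of all probes. At day 7 SM/J arrays lay above LG/J arrays in 5 of 6, against 22.4% of all probes. The share of all probes that were lower without overlap in LG/J was not computed, so the 1 lower probe has none beside it. These shares are a description, since the same values chose the family. The median change of the 6 probes was 1.04 in LG/J and 2.95 in SM/J, beside medians over all probes of -0.01 and -0.02.

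The direction of all 6 changes within each strain was kept under every alternative run. Under median scaling of the arrays in place of quantile normalization, the changes of Gsdmc2 probe ILMN_3115255 were 0.36 in LG/J and 3.52 in SM/J and those of Gsdmc3 were 2.31 and 3.26. With no background correction the Gsdmc3 change in SM/J was 2.94. The excess of the SM/J over the LG/J change of Gsdmc3, 1.15 as reported, ranged down to 0.77 over the alternatives.

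Markers of some other cells were also higher in injured ear. The summed intensity of 6 measured neutrophil markers out of 7 ran from 2998 to 4851 in uninjured and 15851 to 22489 in injured LG/J ear, and from 3801 to 5059 and 53773 to 60811 in SM/J. The 4 wound keratinocyte keratins ran from 16551 to 23631 and 59196 to 69212 in LG/J, and from 14371 to 16718 and 54536 to 65346 in SM/J. Of these 4, Krt17 changed little, from a group mean of 14.25 to 14.16 in LG/J and 13.86 to 13.93 in SM/J. For 5 macrophage markers the ranges were 5483 to 10519 and 13201 to 19660 in LG/J, and 9814 to 11569 and 18640 to 22199 in SM/J. No marker of these 3 lists was below background on all arrays. The neutrophil sum was highest in injured SM/J ear, but its markers did not all move together. S100a8, S100a9, Csf3r and Retnlg had their highest group mean in injured SM/J ear. Mpo, the myeloperoxidase of neutrophil granules, went from a group mean of 11.49 to 11.06 in LG/J and from 10.24 to 8.52 in SM/J, and Cxcr2, a chemokine receptor, was at 8.29 in injured LG/J and 6.13 in injured SM/J ear. The wound keratinocyte sums of the strains overlapped at day 7. The sum of 5 measured suprabasal keratinocyte markers out of 7 was also higher after injury in both strains. It ran from 47593 to 52923 and 62785 to 67452 in LG/J, and from 50981 to 56024 and 56947 to 65021 in SM/J. Its marker Krt1 went from a group mean of 10.26 to 13.43 in LG/J and 11.97 to 13.87 in SM/J. Dsc1 was lower after injury in both strains, and Dsg1a and Lor were lower in SM/J. Some other sums were lower after injury. In LG/J skeletal muscle markers ran from 40580 to 61040 in uninjured and 24843 to 33192 in injured ear. In SM/J cartilage markers ran from 2718 to 3015 and 1397 to 1746. In the other strain each of these 2 sums overlapped. The sum of 4 measured T and NK cell markers out of 5 differed in direction between the strains. It ran from 297 to 885 and 1103 to 1279 in LG/J, and from 1709 to 2006 and 1321 to 1701 in SM/J. In SM/J its marker Nkg7 went the other way, from a group mean of 7.99 to 8.46. The part of these cells in the gasdermin values was not tested, and in whole tissue more cells of a type and more RNA per cell cannot be told apart.

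Gsdmd, the main executioner of pyroptosis, rose modestly in both strains by 1 of its 3 probes. Probe ILMN_2748928 read 8.52, 8.74 and 7.69 in uninjured and 9.19, 9.15 and 9.29 in injured LG/J ear. In SM/J it read 7.99, 7.93 and 7.81 in uninjured and 8.70, 8.75 and 8.50 in injured ear. The injured arrays lay above the uninjured ones in both strains. It rose by 0.89 ± 0.21 (1.86-fold, limma adjusted p = 0.0183) in LG/J and by 0.74 ± 0.21 (1.67-fold, limma adjusted p = 0.0445) in SM/J.

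The brightest Gsdmd probe, ILMN_2941324, had similar differences that did not pass. It read 9.68, 9.95 and 8.85, then 10.27, 10.10 and 10.27 in LG/J, and 9.34, 9.25 and 9.25, then 10.25, 9.93 and 9.79 in SM/J. The groups did not overlap in either strain. The changes were 0.72 ± 0.22 (limma adjusted p = 0.0639) and 0.71 ± 0.22 (limma adjusted p = 0.0671). Without LG/J uninjured replicate 4, which was the lowest LG/J array for both probes, the LG/J change of ILMN_2748928 was 0.58 (limma adjusted p = 0.0152) and that of ILMN_2941324 was 0.40 (limma adjusted p = 0.125). The injury calls of Gsdmd were sensitive to the arrays used. That of ILMN_2748928 in LG/J was lost under median scaling (0.71, limma adjusted p = 0.0796) and without LG/J day 7 replicate 1 (0.91, limma adjusted p = 0.0625) or 3 (0.85, limma adjusted p = 0.0692). That in SM/J was lost in 12 of 22 alternatives, namely on leaving out any 1 of the LG/J day 7 or SM/J arrays (limma adjusted p = 0.0601 to 0.145), under median scaling (0.44, limma adjusted p = 0.285), with no filter (limma adjusted p = 0.051) and with the replicate number as a block (0.36, limma adjusted p = 0.44). With replicate 4 of uninjured LG/J left out, ILMN_2941324 was called in SM/J at the same change of 0.71 (limma adjusted p = 0.00318). On that uninjured LG/J array the macrophage (5483), neutrophil (2998), T and NK cell (297) and fibroblast (58623) sums were the lowest of the 12 arrays. Its basal keratinocyte (83507) and cartilage (5990) sums were the highest. The part of these cells in its Gsdmd values was not tested.

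The third Gsdmd probe, ILMN_2752790, did not follow the others. It read 5.55, 5.75 and 6.08, then 6.15, 5.75 and 6.43 in LG/J, and 6.23, 6.83 and 6.56, then 6.84, 6.79 and 6.54 in SM/J. Only 1 of the uninjured and 2 of the injured LG/J arrays lay above background, against all 6 SM/J arrays. Its injury changes were 0.31 ± 0.20 and 0.19 ± 0.20, neither called. It was higher in SM/J than in LG/J in uninjured ear, by 0.74 ± 0.20 (limma adjusted p = 0.0202), and at day 7, by 0.62 ± 0.20 (limma adjusted p = 0.041). The other Gsdmd probes had SM/J below LG/J, at -0.40 ± 0.21 and -0.21 ± 0.22 in uninjured ear and -0.56 ± 0.21 and -0.22 ± 0.22 at day 7, none called with all arrays. In uninjured ear both were called without LG/J uninjured replicate 4, ILMN_2748928 at -0.72 (limma adjusted p = 0.000968) and ILMN_2941324 at -0.53 (limma adjusted p = 0.015), and also with array weights and without both arrays that stood apart. At day 7 ILMN_2748928 was called in 6 of 22 alternatives. Over the 12 arrays ILMN_2752790 correlated at -0.20 and -0.03 with the other Gsdmd probes, which correlated at 0.95 with each other. The call in uninjured ear was lost without LG/J uninjured replicate 1 or 3 or SM/J uninjured replicate 4 or 5 (limma adjusted p = 0.0681 to 0.101). The call at day 7 did not survive median scaling or leaving out LG/J uninjured replicate 3, LG/J day 7 replicate 1 or 2, SM/J uninjured replicate 5 or any 1 SM/J day 7 array (limma adjusted p = 0.0502 to 0.171). The direction of a strain difference in Gsdmd thus depends on the probe.

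Gsdma, a gasdermin of skin epithelium, was bright in ear and lower in injured SM/J ear than in injured LG/J ear. It read 12.46, 12.27 and 11.94 in uninjured and 12.23, 12.24 and 12.14 in injured LG/J ear. In SM/J it read 11.98, 12.41 and 12.13 in uninjured and 11.31, 11.69 and 11.79 in injured ear, where all 3 arrays lay below the other 9. At day 7 it was lower in SM/J than in LG/J by 0.61 ± 0.17 on the log2 scale (1.53-fold, limma adjusted p = 0.021). The strain difference did not pass on leaving out LG/J day 7 replicate 1 or 2 or SM/J day 7 replicate 1 (limma adjusted p = 0.0603, 0.0671 and 0.0931). The change with injury in SM/J was -0.58 ± 0.17 and did not pass (limma adjusted p = 0.0516), although it was called under 11 of 23 alternatives, and in LG/J it was -0.02 ± 0.17. The summed intensity of hair follicle markers, 9 of 12 measured, ran from 591 to 630 in uninjured and 494 to 503 in injured SM/J ear and from 547 to 1405 and 531 to 801 in LG/J. That of 6 sebaceous gland markers ran from 49933 to 52912 and 37766 to 45661 in SM/J and from 44826 to 49951 and 34223 to 36630 in LG/J. Of the 9 hair follicle probes, 2 were above background on all arrays. The hair follicle sum thus includes probes near background, and its fall cannot be read as less follicle RNA. The part of both marker sets in the Gsdma values was not tested.

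Gsdma3, the gene whose mutations cause hair loss in mice, was dim, and brighter in SM/J. It read 4.96, 5.29 and 5.39 in uninjured and 5.13, 5.09 and 4.77 in injured LG/J ear, all below background. It read 5.90, 6.17 and 6.0 in uninjured SM/J ear, all above background, and 5.77, 5.53 and 5.37 in injured SM/J ear, all below it. In uninjured ear SM/J was at least 1.18-fold brighter than LG/J (measured difference 0.81 ± 0.16, limma adjusted p = 0.0043), a call kept in all 22 alternatives. At day 7 both groups were below background, so no fold is given, although the measured means differed by 0.56 ± 0.16 (limma adjusted p = 0.0235, a call lost in the deposited series table and without LG/J day 7 replicate 3 or SM/J day 7 replicate 1 or 2). The injury change in SM/J did not pass (limma adjusted p = 0.0912).

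Gsdma2 stayed near background. It read 5.48, 5.91 and 5.82, then 5.54, 5.21 and 5.74 in LG/J, and 5.90, 6.16 and 6.09, then 5.79, 6.01 and 5.99 in SM/J. None of its comparisons passed with all arrays, and the largest difference was 0.43 ± 0.16 between the strains at day 7 (limma adjusted p = 0.0691). That difference was called with array weights (0.39, limma adjusted p = 0.0349), without the 2 arrays that stood apart (0.43, limma adjusted p = 0.0435) and without LG/J day 7 replicate 3 (0.56, limma adjusted p = 0.0477).

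Gsdme, the gasdermin cut by caspase 3, was measured above background on all 12 arrays and differed little between groups. It read 7.72, 7.51 and 7.11, then 7.57, 7.36 and 7.51 in LG/J, and 7.38, 7.43 and 7.46, then 7.46, 7.46 and 7.50 in SM/J. All 4 groups overlapped. The injury changes were 0.03 ± 0.15 in LG/J (95% interval -0.29 to 0.35, limma adjusted p = 0.931) and 0.05 ± 0.15 in SM/J (-0.27 to 0.37, limma adjusted p = 0.889). The strains differed by -0.03 ± 0.15 in uninjured ear and -0.01 ± 0.15 at day 7.

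**Figure D2:**
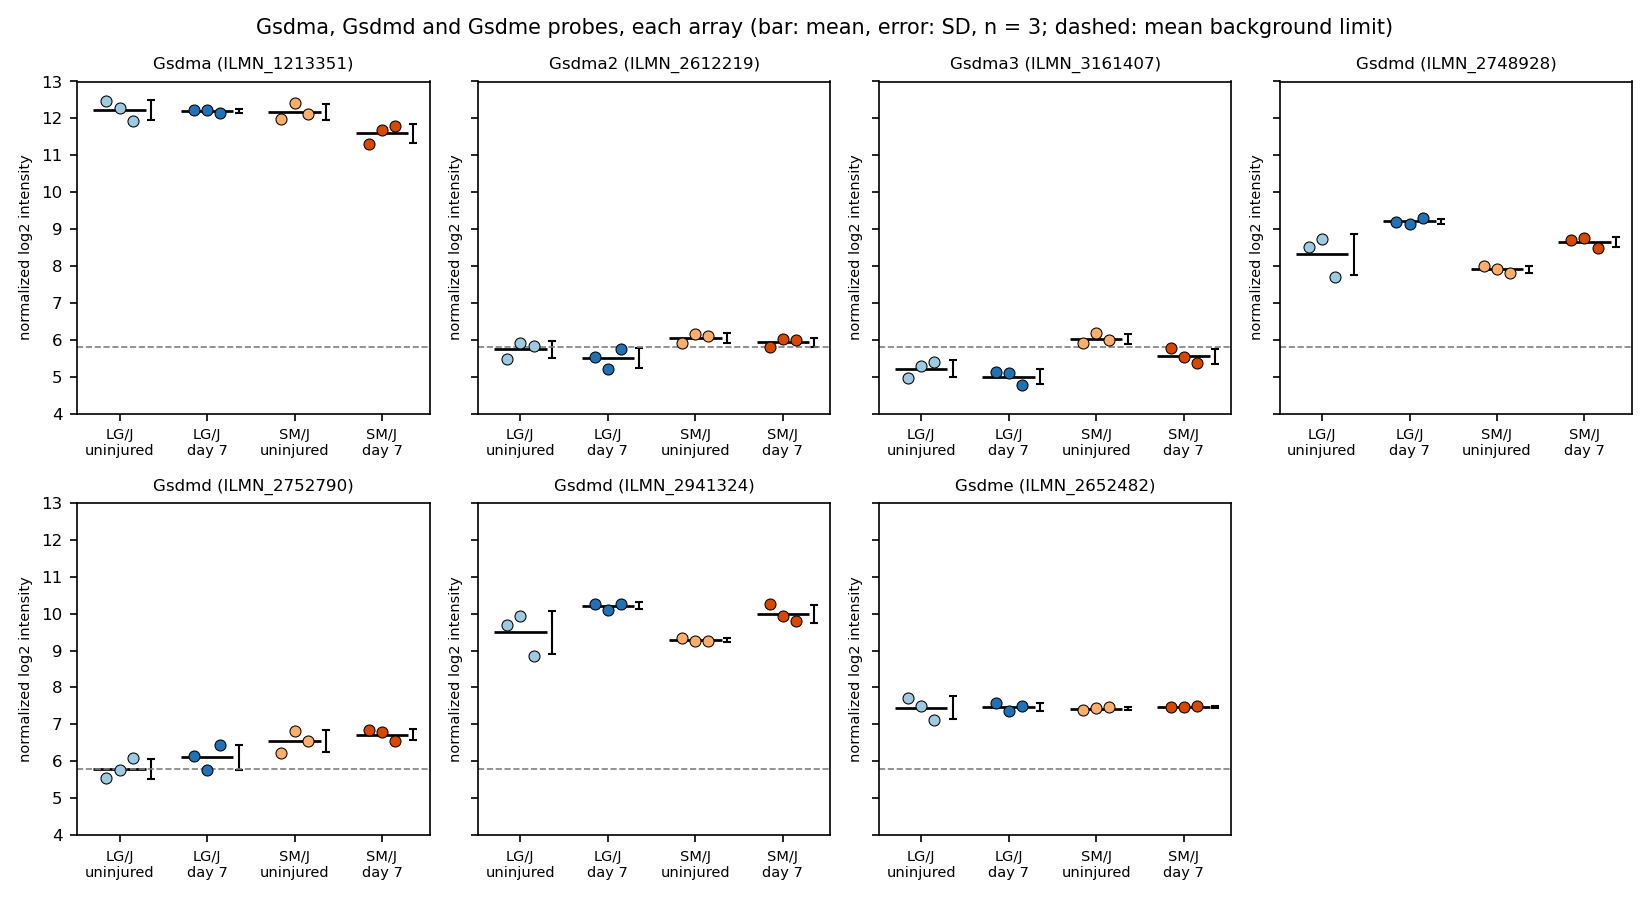
Normalized log2 intensity of the 7 probes of Gsdma, Gsdma2, Gsdma3, Gsdmd and Gsdme on each array, with the group mean (bar), its SD (n = 3) and the mean background limit (dashed). Gsdma is at 11.31 to 11.79 in injured SM/J ear and at 11.94 or above elsewhere, Gsdmd probes ILMN_2748928 and ILMN_2941324 are higher in injured ear, and Gsdme stays between 7.11 and 7.72.

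Over the 7 tested probes, 1 rose and 0 fell with injury in LG/J, where 9.04% of all 33960 probes were called, 4.81% higher and 4.23% lower. In SM/J 1 rose and 0 fell, where 9.39% were called, 5.17% higher and 4.21% lower. Under median scaling the share of all calls that were higher was 29.6% in LG/J and 28.2% in SM/J, against 53.2% and 55.1%. For the difference of the 2 injury changes 0 of 7 were called by limma, and 1, Gsdma, had an unadjusted p under 0.05 (-0.56 ± 0.24, limma adjusted p = 0.499). The background there was 0.345% of probes. Between the strains 2 of 7 were higher in SM/J in uninjured ear, against 21.6% of probes called either way. At day 7, 2 were higher and 1 lower, against 25.2% called either way. Counts out of 7 near such backgrounds are no result about these genes as a group. The injury and strain comparisons share arrays and are not independent of each other.

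**Figure D3:**
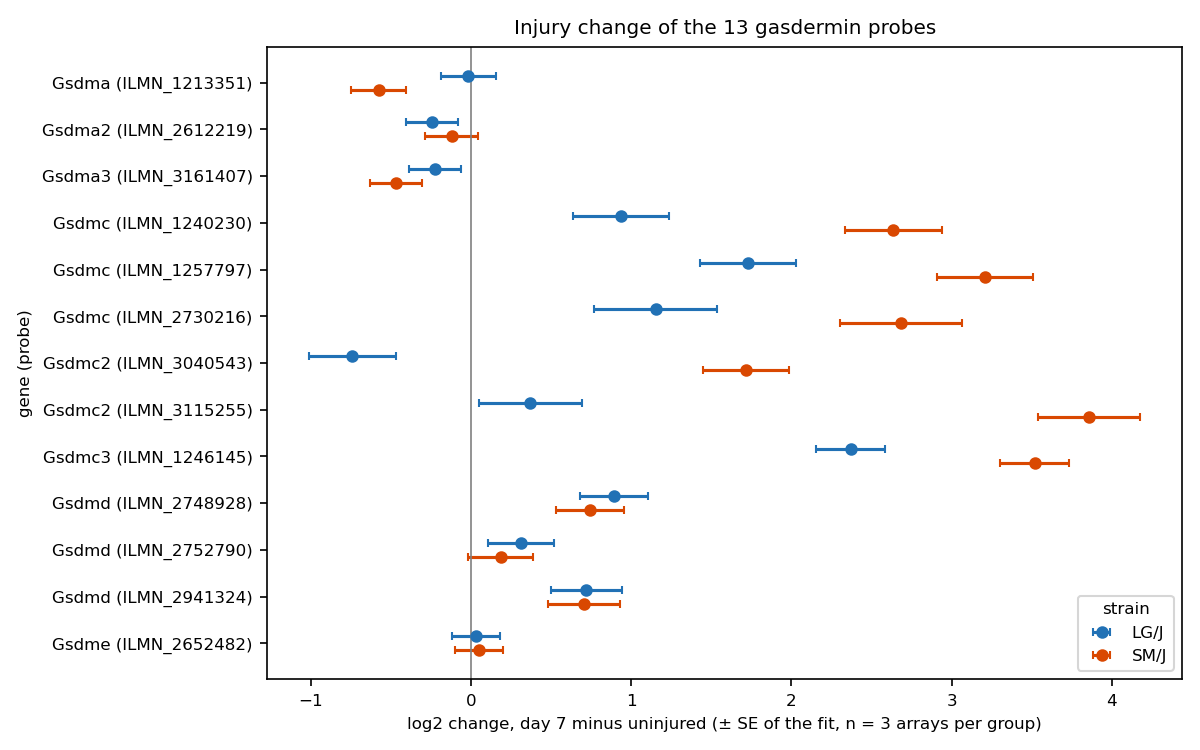
Log2 change from uninjured ear to day 7 for the 13 gasdermin probes in LG/J and SM/J, with the SE of the fit (n = 3 arrays per group). The SM/J change is over 1 log2 unit above the LG/J change in all 6 Gsdmc, Gsdmc2 and Gsdmc3 probes, from 1.15 for Gsdmc3 to 3.49 for Gsdmc2 probe ILMN_3115255, and differs from it by -0.15 to -0.01 in the 3 Gsdmd probes.

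Genes that act before the pore rose in part in both strains. Of 26 genes of inflammasomes and their sensing, which bring caspases to gasdermins, 18 were tested, and in each strain 5 rose and 0 fell, where 4.81% (LG/J) and 5.17% (SM/J) of all probes were called higher. Each listed gene was followed by its brightest probe, so these shares are not of like-chosen probes. The median change was 0.39 in LG/J and 0.40 in SM/J. Casp4, whose caspase 11 cuts Gsdmd on sensing bacterial endotoxin, rose by 1.64 ± 0.26 in LG/J and 1.48 ± 0.26 in SM/J (limma adjusted p = 0.00154 and 0.00249). Casp1, whose caspase cuts both Gsdmd and pro-interleukin 1 beta, rose by 0.64 ± 0.18 and 0.71 ± 0.18 (limma adjusted p = 0.0369 and 0.0213). P2rx7, the ATP-gated channel that triggers the NLRP3 inflammasome, rose by 0.92 ± 0.15 and 0.62 ± 0.15, and Irf1, a transcription factor of the interferon response, by 0.76 ± 0.22 and 0.75 ± 0.22. Gbp2, a GTPase that coats bacteria, rose by 1.84 ± 0.43 in LG/J, with 1.11 ± 0.43 in SM/J not called. Mefv, which encodes the sensor pyrin, rose by 1.52 ± 0.27 in SM/J, with 0.47 ± 0.27 in LG/J not called. Its uninjured means, 5.84 in LG/J and 5.38 in SM/J, lay near or below the background limit, which limits what its changes show. Of these calls, those of Irf1 were lost in 12 (LG/J) and 13 (SM/J) of 23 alternatives, most of which leave out 1 array, and those of Casp1 in 11 and 5. That of P2rx7 in SM/J was lost in 5, that of Gbp2 in 3 (the replicate block, LG/J day 7 replicate 2 or 3 left out) and that of Mefv in 1 (the replicate block). None of the 18 was called for the difference of the changes by limma (2 had an unadjusted p under 0.05). Without the 2 arrays that stood apart the counts were 3 and 0 in LG/J and 6 and 1 in SM/J. At that setting 1 gene, Mefv, was called for the difference (1.29, limma adjusted p = 0.0459). Calls over all probes also moved between alternatives, for the difference from 14 to 2345 (117 with all arrays). Counts without the 2 arrays, here and in the lists below, are therefore no result about a list.

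The proteases that cut gasdermins were measured in part. Of 10 listed, 5 were tested; 3 rose in LG/J and 2 in SM/J, and 0 fell in either, beside the same 4.81% and 5.17% of all probes called higher. Beside Casp4 and Casp1, which also belong to the list above, Casp8, whose caspase can cut Gsdmd and Gsdmc, rose by 0.49 ± 0.12 in LG/J (limma adjusted p = 0.0234), with 0.36 ± 0.12 in SM/J not called. The Casp8 call was lost under median scaling, with the replicate block, and without LG/J uninjured replicate 3 or LG/J day 7 replicate 1 or 3. The medians were 0.53 and 0.36. Without the 2 arrays that stood apart 3 rose in LG/J and 4 in SM/J, and 1, Casp6, was called for the difference, lower in SM/J (-0.70, limma adjusted p = 0.0376).

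Genes released through pores or acting in lytic death rose in part in both strains. Of 10 listed, 9 were tested, and 5 rose in LG/J and 4 in SM/J, with 0 falling, where 4.81% and 5.17% of all probes were called higher. The medians were 0.72 and 0.42. Il1b, the cytokine that leaves through Gsdmd pores, rose by 2.80 ± 0.43 in LG/J and 5.21 ± 0.43 in SM/J (limma adjusted p = 0.00143 and 5.16e-06), and the difference of 2.42 ± 0.61 did not pass (limma adjusted p = 0.117). Its uninjured LG/J mean of 5.81 lay near the background limit. Mlkl, the pore-former of necroptosis, rose by 1.38 ± 0.22 and 1.29 ± 0.22 and its kinase gene Ripk3 by 1.13 ± 0.16 and 1.01 ± 0.16. Il33, an alarmin of epithelium released on cell damage, rose by 1.07 ± 0.18 and 1.04 ± 0.18. Of these 9 genes 0 were called for the difference of the changes by limma, and 2 had an unadjusted p under 0.05. Of 17 ESCRT-III genes, whose proteins repair pores in the membrane, 16 were tested and 0 were called by limma in either strain, with an unadjusted p under 0.05 in 3 in LG/J and 3 in SM/J. Over all probes 9.04% (LG/J) and 9.39% (SM/J) were called either way, so 0 of 16 is no result about these genes as a group. Without the 2 arrays that stood apart 1 ESCRT-III gene was called higher and 2 lower in SM/J.

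Interleukin 4 and 13 signalling, known to induce Gsdmc genes in mouse intestine, was followed by 25 genes, of which 23 were tested. In LG/J 5 rose and 1 fell, and in SM/J 6 rose and 1 fell, with medians of 0.19 and 0.14. Over all probes 9.04% and 9.39% were called either way. The ligand genes Il4 (0.62 in LG/J and -0.04 in SM/J) and Il13 (0.26 in each) were not called. Stat6 (0.13 in LG/J and 0.28 in SM/J) was not called either. The gene that fell in SM/J was Ccl24, at -0.90 ± 0.24 (limma adjusted p = 0.0314). These 4 genes are given outside the rule for naming genes. Il4ra, the shared receptor chain, rose by 1.64 ± 0.26 in LG/J and 1.75 ± 0.26 in SM/J (limma adjusted p = 0.00165 and 0.000865). Arg1, the arginase of alternatively activated macrophages, rose by 2.10 ± 0.18 and 3.36 ± 0.18. Chil3 and Chil4, chitinase-like secreted proteins, rose in SM/J by 2.86 ± 0.29 and 2.74 ± 0.28, with 0.46 ± 0.29 and 0.72 ± 0.28 in LG/J not called. Their uninjured LG/J means of 5.51 and 5.47 lay below the background limit. Chil3 was the 1 gene of the list called for the difference of the changes (2.41 ± 0.41, limma adjusted p = 0.0312), a call lost in 10 of 23 alternatives, 9 of which leave out 1 array. Without the 2 arrays that stood apart 4 genes were called for this difference, Chil3 (2.21, limma adjusted p = 0.00595), Arg1 (1.21, limma adjusted p = 0.00435), Chil4 (1.63, limma adjusted p = 0.0205) and Retnla (1.64, limma adjusted p = 0.00868). Over all probes 91.5% of the calls for this difference were higher with all arrays, and 43.3% without those 2. The count of 4 is therefore no result about the list. Ccl17, a chemokine for T helper cells, rose by 1.02 ± 0.30 in LG/J (limma adjusted p = 0.0499). In SM/J its change of 0.95 ± 0.30 was similar but not called (limma adjusted p = 0.0634). Retnla, a macrophage product induced by interleukin 4, went the other way and fell by 1.38 ± 0.38 in LG/J (limma adjusted p = 0.0399). In SM/J its change of -0.57 ± 0.38 was not called (limma adjusted p = 0.415). The calls of Ccl17 and Retnla were lost in 13 and 8 of 23 alternatives, each including any 1 LG/J day 7 array left out. Without the 2 arrays that stood apart 4 rose and 2 fell in LG/J and 7 and 2 in SM/J.

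**Figure D4:**
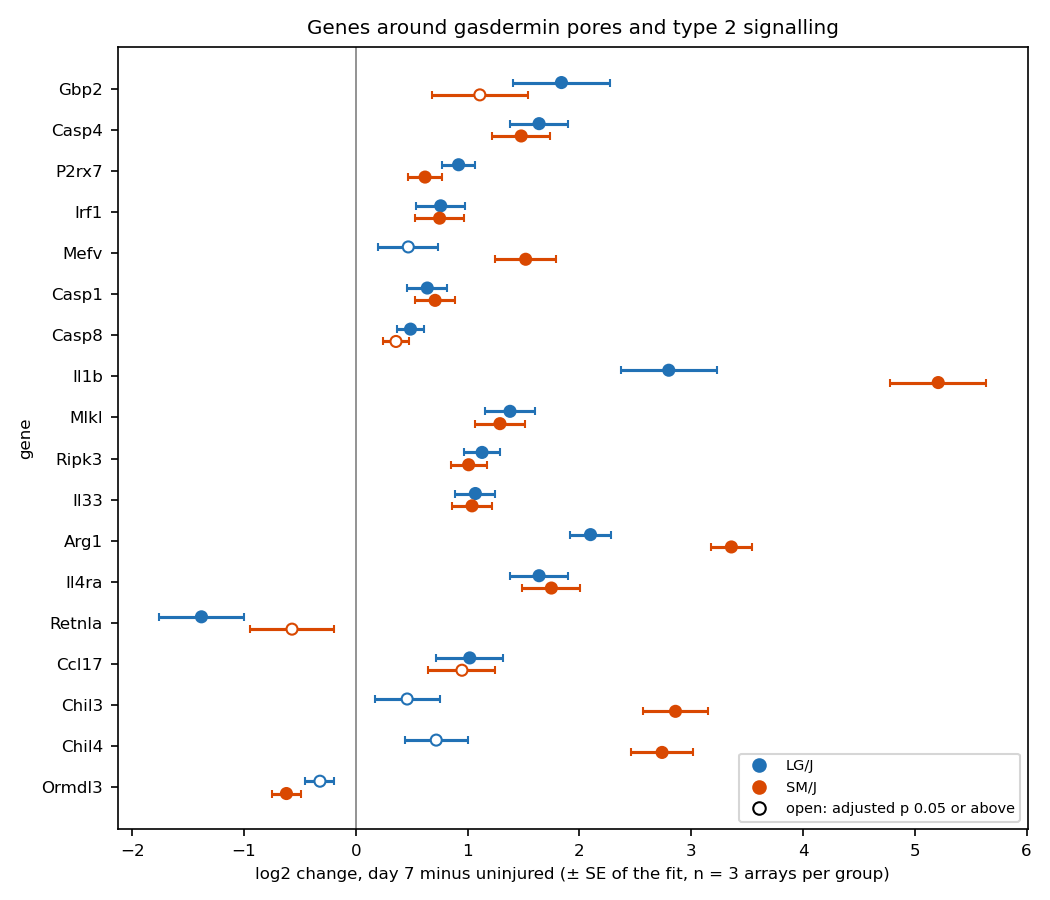
Log2 change from uninjured ear to day 7 of the named genes of the listed pathways and of the neighbour Ormdl3, in LG/J and SM/J, with the SE of the fit (n = 3 arrays per group). Filled points passed the test at an adjusted p under 0.05 and open points did not. Casp4, Casp1, Mlkl, Ripk3, Il33 and Il4ra change by like amounts in the strains. Il1b is at 2.80 in LG/J and 5.21 in SM/J, a difference that did not pass (limma adjusted p = 0.117). Uninjured Il4ra in both strains and uninjured LG/J Il1b lie near the background limit.

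The genes next to the gasdermins on their chromosomes were compared because neighbours can share changes. Of 24 neighbours, 3 on each side of each of the 4 places, 8 were tested. Over all probes 9.04% (LG/J) and 9.39% (SM/J) were called either way. Counts of 0 or 1 out of 8 beside such shares are no result about neighbours as a group. In LG/J 0 were called by limma (1 had an unadjusted p under 0.05). In SM/J 1 fell, Ormdl3 beside the Gsdma genes, which encodes a regulator of sphingolipid synthesis, by 0.62 ± 0.13 on the log2 scale (limma adjusted p = 0.00781, lost with the replicate block), with -0.32 ± 0.13 in LG/J not called. Cyrib, which lies outside the rule for naming genes, is given as the 1 tested neighbour of the Gsdmc cluster. It changed by -0.32 in LG/J and -0.12 in SM/J, neither called. Whether the cluster and its neighbours share a change was not tested.

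The probes whose pattern was most like that of Gsdmc2 probe ILMN_3115255 over the 12 arrays were sought among probes of 1 gene name outside the family. They were 2 probes of Mmp3, the matrix metalloprotease stromelysin 1 (Pearson correlation 0.96 and 0.95), and probes of Tnc, the matrix protein tenascin C (0.96), Fgr, a Src-family kinase of myeloid cells (0.95), Slc7a11, a cystine transporter (0.94), and Chil4 (0.94). Each was highest in injured SM/J ear. The Tnc probe had group means of 5.54 and 5.67 in LG/J and 5.64 in uninjured SM/J ear, below the background limit. In injured SM/J ear Tnc was at 6.82. Fgr and Slc7a11, at 5.80 and 5.61 in uninjured LG/J ear, were also near or below the limit there. The brighter Mmp3 probe had group means of 9.95 and 10.45 in LG/J and 10.38 and 11.93 in SM/J, uninjured and injured. Chil4 had means of 5.47 and 6.19 in LG/J and 7.61 and 10.35 in SM/J. So, like Gsdmc2 probe ILMN_3115255, it was near background in uninjured LG/J ear and brighter in uninjured SM/J ear. These probes were picked as the highest of all, and the arrays share 4 groups, so the correlations are a description.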

How the data were processed

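RNA from mouse ear was measured on 12 Illumina bead arrays. Per the labels, Trizol was used for extraction and biotin for labelling. The submitters' processing notes name BeadStudio. The deposited values of each array are average probe intensities on a linear scale for 45281 probes, with no detection p-values. The deposited table of the series holds intensities of 28845 probes after a between-array normalization that is not given in the sources used here. Of all probes, 23604 had 1 gene name, 12 had several and 21665 had none.

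Intensities were background-corrected by normexp on the signals (offset 16), converted to log2 and quantile normalized. Removing the dimmest 25% by mean left 33960 probes, with all 13 gasdermin probes among them. Differences were tested per probe with limma 3.58.1 in R 4.3.3 (lmFit and eBayes), with 1 mean per group, a shared spread, 5 comparisons and Benjamini-Hochberg adjustment over all probes, and called at an adjusted p under 0.05. The fit was tested on simulated data. A gene in a list is its brightest probe. Per list and injury comparison, at most 4 called genes were named, those with the largest change. The background limit of an array is the 95% point of a normal curve fitted at its mode, a choice made after the data were seen. An "at least" fold sets the brighter group's mean against the dim group's, with dim values raised to the limit of the array. The number of arrays limits the precision. With 3 arrays a group, 0.1 is the lowest p an exact permutation could reach, and the fit was used instead. The members and lists were chosen with earlier results of these data known.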

Additional observations from a re-analysis of the deposited data

Results flagged for a closer look

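Gsdmc2 probe ILMN_3040543 drew attention because its 3 injured LG/J arrays were all lower, and its 3 injured SM/J arrays all higher, than the uninjured arrays of the same strain. The SM/J change exceeded the LG/J change by 2.46 ± 0.38 on the log2 scale. This difference was not tested, since the family was chosen on it. The second Gsdmc2 probe, ILMN_3115255, was not lower in LG/J, where its arrays overlapped.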

How the results depend on the processing

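Results were recomputed under 23 alternatives, counted over the 7 tested probes of the gasdermin family. No change turned its direction with a call. For injury in LG/J (1 called) the count was 0 under median scaling and with 1 probe per gene, 2 with array weights and with an intensity trend and robust spread, and 0 to 2 on leaving out 1 array. For injury in SM/J (1 called) it was 2 with no background correction, an offset of 50, the deposited series table, the dimmest 50% removed, or the trend. It was 0 under median scaling, with no filter and with the replicate block, 4 with array weights, 4 without the pair of outlying arrays (replicate 4 of uninjured LG/J, replicate 2 of uninjured SM/J), and 0 to 4 on leaving out 1 array. The difference of the changes had 0 called throughout. For the strains in uninjured ear (2 called) it was 1 with the dimmest 50% removed or 1 probe per gene, 4 with array weights, 4 without that pair, and 1 to 4 on leaving out 1 array. At day 7 (3 called) it was 5 with array weights, 5 without that pair, and 0 to 4 on leaving out 1 array. The cause of these moves was not tested. Replicate numbers did not pair the arrays (correlations of -0.088 to 0.264 over 10 pairs). Over all probes the calls ran from 1513 to 6002 in LG/J (3071 as reported), 1582 to 8355 in SM/J (3188), 14 to 2345 for the difference (117), 3464 to 15479 in uninjured ear (7326) and 4803 to 13299 at day 7 (8541). Probes near background, Gsdma2, Gsdma3, Gsdmd probe ILMN_2752790 and Gsdmc2 in LG/J, are limited in what they can show. The same holds for list genes near background in uninjured ear, Mefv and Il4ra in both strains and Il1b, Chil3 and Chil4 in LG/J.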
